A study of Mus musculus with 12 samples.

Results

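The genes described here are 10 members of the signalling circuit of the epidermal growth factor receptor (EGFR), of 55487 gene identifiers in the count files. They comprise the EGFR ligands Areg, Ereg, Hbegf and Tgfa, the receptor gene Egfr, the dual-specificity phosphatase genes Dusp4, Dusp5 and Dusp6, and the Sprouty genes Spry2 and Spry4. The members were chosen from a list of symbols written with earlier results of these libraries known, so their differences between groups are a description, with no test. Of the 10 members, 9 passed the filter on low counts, as did 13535 genes in all, and Spry2 did not pass it.

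EGFR is a receptor tyrosine kinase of the cell surface. Its ligands are made as membrane-bound precursors that proteases release, and ligand binding activates the RAS, RAF, MEK and ERK relay, the mitogen-activated protein kinase (MAPK) pathway that drives growth and repair programmes. Active ERK induces genes that restrain the same pathway, among them phosphatases that remove phosphate from ERK and Sprouty proteins that act upstream of it. In the liver, EGFR and its ligands are known for their part in hepatocyte proliferation and regeneration after injury.

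The study measured messenger RNA by sequencing in cultured primary mouse hepatocytes, the parenchymal cells that make up most of the liver, in 4 groups of 3 libraries. Control cells were untreated, and FAC cells received FAC, an abbreviation that the labels do not expand. Lip-1+FAC cells were given liproxstatin-1, which the labels call a scavenger of lipid reactive oxygen species, on day 2 of culture and FAC afterwards. MT+FAC cells were given Mito-TEMPO, which the labels call a scavenger of mitochondrial reactive oxygen species, on day 2 and FAC afterwards. There was no group with a scavenger and without FAC. The labels used here give neither strain, sex nor age, and they do not say whether the replicates of a group came from separate animals or cultures. P-values therefore measure only the spread between these libraries, which may be technical.

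Gene-assigned counts lay between 22991598 and 31683376 per library, except in FAC replicate 2, which held 52529278 and whose file is marked as combined without a statement of what was combined. Hepatocyte markers were abundant, and the 7 markers summed to 16739 to 17291 CPM (counts scaled to the library size) in control and 16159 to 16829 CPM in FAC cells, and to 12716 to 13865 CPM with liproxstatin-1 and 13184 to 14491 CPM with Mito-TEMPO. In FAC against control 1 of the 7 was called higher (Cyp2e1, at 0.42 on the log2 scale) and 1 lower (Cps1, at -1.25), where 17.5% and 19.1% of all genes tested were called higher and lower. Of the 7, 5 were called lower and 1 higher in each scavenger group against FAC, where 19.2% of all genes were called lower and 20.7% higher with liproxstatin-1 and 19.7% and 21.2% with Mito-TEMPO. Against control, 7 were called lower with liproxstatin-1 and 5 with Mito-TEMPO, against 14.8% and 10.1% of all genes. Of the other cell types, 4 of 5 cholangiocyte markers (Krt19, Krt7, Epcam and Sox9) were called higher in FAC than in control. Their list, Spp1 included, summed to 58.6 to 69.0 CPM in control and 98.4 to 123 CPM in FAC cells, and to 110 to 125 CPM with liproxstatin-1 and 104 to 145 CPM with Mito-TEMPO before FAC. The same 4 markers were called lower with either scavenger than in FAC, and Spp1 was called higher. The list of 7 Kupffer cell and leukocyte markers summed to 220 to 252 CPM in control and 285 to 318 CPM in FAC cells, and to 113 to 143.2 CPM with liproxstatin-1 and 140.0 to 171 CPM with Mito-TEMPO, of which Cd68 made up most. Cd68 was called higher in FAC than in control, at 0.39, and Clec4f, a Kupffer cell lectin, was called lower, at -1.08. Stellate cell markers summed to 9.27 to 14.3 CPM in control, 18.9 to 19.6 CPM in FAC cells and 7.90 to 9.81 CPM with a scavenger. Of the 4 tested stellate markers, Reln was called higher in FAC than in control, at 1.11, and Dcn lower, at -0.60, while Pdgfrb (-0.75) and Col1a1 (-0.52) were not called. Endothelial markers summed to 34.6 to 36.0 CPM in control, 33.6 to 34.3 CPM in FAC cells and 24.9 to 29.7 CPM with a scavenger, and none of the 31 markers was at 0 in all libraries. These markers moved in the same comparisons as the members, and their part in the results was not tested. In bulk RNA, fewer cells of a type and less RNA per cell cannot be told apart.

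Promoter sequences are shown for Areg, Dusp5, Dusp6 and Egfr, which had some of the highest levels or widest differences between groups. Of the 10 members, 6 had an entry in the RefSeq table of build GRCm38.p6 (Areg, Tgfa, Egfr, Dusp5, Dusp6 and Spry2). Ereg, Hbegf, Dusp4 and Spry4 had none. Each window is the 250 bases before the RefSeq start site, 5′ to 3′ on the strand of the gene, here the plus strand in each case, and capitals mark matches to the motifs searched. The windows are chr5:91139349-91139598 for Areg, chr19:53528895-53529108 for Dusp5, chr10:99262981-99263230 for Dusp6 and chr11:16751953-16752202 for Egfr. For Dusp5 the last 36 bases of the window are not shown, since the GENCODE annotation starts the gene 36 bases before RefSeq does, and 214 bases are printed. Motif positions are counted from the RefSeq start site.
Areg: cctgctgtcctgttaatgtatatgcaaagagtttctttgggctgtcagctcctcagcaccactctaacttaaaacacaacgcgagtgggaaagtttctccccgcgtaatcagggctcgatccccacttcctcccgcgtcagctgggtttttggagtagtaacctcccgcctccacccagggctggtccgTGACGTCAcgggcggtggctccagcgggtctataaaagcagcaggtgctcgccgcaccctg
Dusp5: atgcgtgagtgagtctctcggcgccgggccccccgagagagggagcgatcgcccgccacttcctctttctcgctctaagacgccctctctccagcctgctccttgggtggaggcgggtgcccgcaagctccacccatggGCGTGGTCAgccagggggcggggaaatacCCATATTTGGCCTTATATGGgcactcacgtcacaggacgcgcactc
Dusp6: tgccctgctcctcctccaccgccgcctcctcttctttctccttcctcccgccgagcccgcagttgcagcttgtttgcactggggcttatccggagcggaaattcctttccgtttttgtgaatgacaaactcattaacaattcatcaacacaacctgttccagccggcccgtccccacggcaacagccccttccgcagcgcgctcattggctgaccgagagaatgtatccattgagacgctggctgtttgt
Egfr: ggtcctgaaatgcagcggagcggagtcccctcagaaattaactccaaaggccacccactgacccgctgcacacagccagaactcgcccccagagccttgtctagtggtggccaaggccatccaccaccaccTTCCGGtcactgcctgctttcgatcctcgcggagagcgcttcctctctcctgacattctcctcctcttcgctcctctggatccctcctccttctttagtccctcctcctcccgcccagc

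Both strands were searched for AP-1 (TGANTCA), CRE (TGACGTCA), ETS (CCGGAA), the antioxidant response element ARE (TGACNNNGC) and the CArG box of serum response factor. Areg had a CRE at positions -61 to -54 from the start site. A CRE was found in 1.55% of 32851 RefSeq windows of the same length. Dusp5 had adjoining CArG boxes at -82 to -73 and -72 to -63, a motif present in 1.47% of windows, and an ARE on the reverse strand at -111 to -103, present in 10.2% of windows. Egfr had an ETS motif on the reverse strand at -119 to -114, present in 12.03% of windows. The windows of Dusp6, Tgfa and Spry2 had none of these letters, and AP-1, present in 6.75% of windows, matched in none of the 6. A match describes the letters of the window, and binding was not measured.

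Compared per length, Egfr and Dusp6 had the highest levels of the members in every group. On the scale of CPM per kilobase of exon (RPKM, computed here), control means were 46.2 ± 2.70 for Egfr and 39.2 ± 4.78 for Dusp6 (SD, n = 3), and the libraries of these neighbours overlapped. Tgfa followed at 18.1 ± 1.76, then Areg at 6.86 ± 0.894, Dusp5 at 2.87 ± 0.219 and Dusp4 at 2.21 ± 0.394 RPKM, each without overlap with the next. Hbegf at 0.585 ± 0.130 and Spry4 at 0.566 ± 0.0453 RPKM overlapped each other. In FAC cells Dusp6 stood first at 94.9 ± 16.2 RPKM and Egfr second at 59.4 ± 2.22 RPKM, without overlap, and Areg, at 34.6 ± 3.01 RPKM, stood above Tgfa, at 15.3 ± 0.996 RPKM. Ereg and Spry2 were lowest in both groups, at 0.0287 and 0.0186 RPKM in control and 0.121 and 0.0248 RPKM in FAC.

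**Figure D1:**
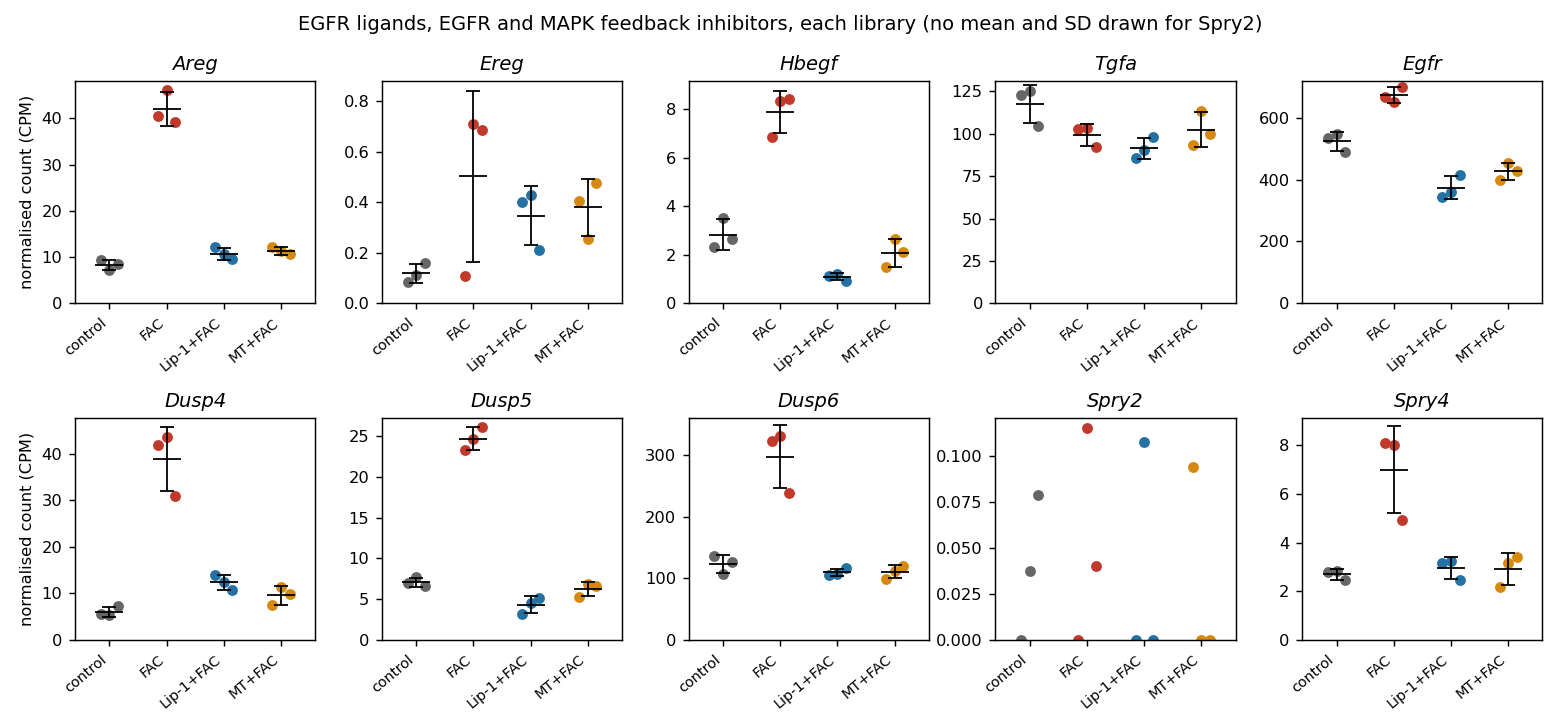
Normalised count (CPM, y axis) of each member in each library, by group, where each point is a library and lines give the mean and SD of 3. In FAC, Areg lay between 39.2 and 46.1 CPM and Dusp4 between 30.9 and 43.6 CPM, above every library of the other groups, whereas Tgfa lay between 92.0 and 104 CPM, inside the range of the scavenger groups. Spry2 had 0 counts in 6 of 12 libraries and is drawn without mean.

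Among the ligands, Areg had the largest log2 fold change in FAC against control in the main edgeR fit. Under the alternatives Ereg reached up to 2.52 and Areg up to 2.42, so that this order was not fixed. Areg (amphiregulin, ENSMUSG00000029378, GRCm38 chromosome 5, 91139599 to 91148432) encodes an EGFR ligand induced in injured tissue. Control replicates 1, 2 and 3 held 9.31, 7.17 and 8.52 CPM of Areg, and FAC replicates held 40.6, 46.1 and 39.2 CPM. Lip-1+FAC replicates held 12.1, 10.7 and 9.52 CPM, and MT+FAC replicates held 12.2, 11.3 and 10.6 CPM. All FAC libraries were thus above all others, and the scavenger groups overlapped each other while lying above control. The log2 fold change of Areg was 2.34 (SE 0.120) in FAC against control, -1.96 (SE 0.117) in Lip-1+FAC against FAC and -1.88 (SE 0.116) in MT+FAC against FAC.

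Hbegf (heparin-binding EGF-like growth factor, ENSMUSG00000024486), a ligand of EGFR and ERBB4, showed a similar rank of FAC at lower levels. Its control replicates held 2.31, 3.53 and 2.64 CPM and its FAC replicates 6.87, 8.35 and 8.44 CPM. Lip-1+FAC replicates held 1.13, 1.22 and 0.930 CPM and MT+FAC replicates 1.5, 2.65 and 2.12 CPM. The Lip-1+FAC libraries of Hbegf were below all control libraries, and the MT+FAC libraries overlapped control. The log2 fold change was 1.48 (SE 0.210) in FAC against control, -2.84 (SE 0.234) in Lip-1+FAC against FAC and -1.92 (SE 0.215) in MT+FAC against FAC.

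Ereg (epiregulin, ENSMUSG00000029377, GRCm38 chromosome 5, 91074622 to 91093646), a ligand gene that neighbours Areg, was near the limit of detection. Its control libraries held 2, 3 and 4 counts and its FAC libraries 3, 37 and 17 counts, or 0.110, 0.709 and 0.686 CPM. FAC replicate 1 of Ereg was thus within the control range, and the other two FAC libraries were above every other library. The Lip-1+FAC libraries held 11, 12 and 5 counts and the MT+FAC libraries 13, 8 and 11 counts, between 0.211 and 0.475 CPM. The log2 fold change in FAC against control was 2.07 (SE 0.664), and its edgeR call was lost without control replicate 1 (1.90) or 2 (2.03) and without FAC replicate 2 (1.68) or 3 (1.86). Ereg differed by -0.55 (SE 0.558) in Lip-1+FAC against FAC and by -0.45 (SE 0.549) in MT+FAC against FAC, less than their error. Of its exonic bases, 3.42% overlap another gene.

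Tgfa (transforming growth factor alpha, ENSMUSG00000029999, GRCm38 chromosome 6, 86195223 to 86275719) stood apart from the other 3 member ligands in direction. Its control replicates held 123, 125 and 104 CPM and its FAC replicates 103, 104 and 92.0 CPM. Lip-1+FAC replicates held 85.9, 90.3 and 97.9 CPM and MT+FAC replicates 93.6, 114 and 99.8 CPM. Control and FAC libraries of Tgfa did not overlap, but the gap between the lowest control and the highest FAC library was less than the spread within either group. The log2 fold change was -0.24 (SE 0.0837) in FAC against control, -0.12 (SE 0.0839) in Lip-1+FAC against FAC and 0.04 (SE 0.0837) in MT+FAC against FAC. The call of Tgfa in FAC against control was lost with RLE scaling (-0.22), with DESeq2 (-0.22), with only the compared libraries (-0.22), and without control replicate 1 (-0.21) or 2 (-0.19) or FAC replicate 1 (-0.26) or 3 (-0.19).

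The receptor gene Egfr (ENSMUSG00000020122, GRCm38 chromosome 11, 16752203 to 16918158) was higher in FAC than in control and lower with either scavenger than in FAC. The control replicates held 534, 547 and 489 CPM, FAC replicates 666, 652 and 701 CPM, Lip-1+FAC replicates 345, 361 and 415 CPM and MT+FAC replicates 399, 455 and 427 CPM. FAC libraries of Egfr were above control, and all libraries of both scavenger groups were below control. On the log2 scale, Egfr differed by 0.36 (SE 0.0697) in FAC against control, -0.85 (SE 0.0702) in Lip-1+FAC against FAC and -0.65 (SE 0.0699) in MT+FAC against FAC. The scavenger groups stood at -0.49 (SE 0.0699, Lip-1+FAC) and -0.29 (SE 0.0698, MT+FAC) against control.

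Of the phosphatase genes, Dusp4 (ENSMUSG00000031530, GRCm38 chromosome 8, 34807297 to 34819894), which encodes a nuclear MAPK phosphatase, had the largest log2 fold change in FAC against control. Control replicates held 5.55, 5.33 and 7.30 CPM and FAC replicates 41.9, 43.6 and 30.9 CPM. Lip-1+FAC replicates held 14.0, 12.5 and 10.7 CPM and MT+FAC replicates 7.47, 11.4 and 9.93 CPM. FAC libraries of Dusp4 were above all others, and the libraries of both scavenger groups remained above control. On the log2 scale, Dusp4 differed by 2.68 (SE 0.178) in FAC against control, -1.65 (SE 0.166) in Lip-1+FAC against FAC and -2.02 (SE 0.169) in MT+FAC against FAC.

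Dusp5 (ENSMUSG00000034765, GRCm38 chromosome 19, 53529109 to 53542431) encodes a nuclear phosphatase selective for ERK. Control replicates held 6.96, 7.69 and 6.63 CPM, FAC replicates 23.2, 24.6 and 26.1 CPM, Lip-1+FAC replicates 3.24, 4.58 and 5.20 CPM and MT+FAC replicates 5.31, 6.87 and 6.61 CPM. Lip-1+FAC libraries of Dusp5 were below all control and all MT+FAC libraries, and MT+FAC overlapped control. On the log2 scale, Dusp5 differed by 1.80 (SE 0.145) in FAC against control, -2.51 (SE 0.152) in Lip-1+FAC against FAC and -1.98 (SE 0.146) in MT+FAC against FAC. Of the exonic bases of Dusp5, 22.1% overlap another annotated gene, so that its counts are uncertain where both are transcribed, although the call and direction in these comparisons were the same with the strand columns summed.

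Dusp6 (ENSMUSG00000019960, GRCm38 chromosome 10, 99263231 to 99267489) encodes a cytoplasmic phosphatase of ERK and was the most abundant of these feedback genes. Control replicates held 136, 106 and 127 CPM, FAC replicates 322, 330.3 and 239 CPM, Lip-1+FAC replicates 105, 108 and 116 CPM and MT+FAC replicates 99.2, 112 and 120.4 CPM. FAC libraries of Dusp6 were above all others, and the other 3 groups overlapped one another. Dusp6 had log2 fold changes of 1.27 (SE 0.124) in FAC against control, -1.44 (SE 0.125) in Lip-1+FAC against FAC and -1.43 (SE 0.125) in MT+FAC against FAC.

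Spry4 (ENSMUSG00000024427), a Sprouty inhibitor that acts between the receptor and RAF, held 2.78, 2.85 and 2.45 CPM in control and 8.07, 7.99 and 4.93 CPM in FAC. Lip-1+FAC replicates held 3.17, 3.25 and 2.45 CPM and MT+FAC replicates 2.16, 3.16 and 3.41 CPM. FAC replicate 3 was lower than the other FAC libraries for Spry4, as it also was for Dusp4 and Dusp6, but above every library of the other groups. The log2 fold change of Spry4 was 1.39 (SE 0.218) in FAC against control, -1.25 (SE 0.215) in Lip-1+FAC against FAC and -1.28 (SE 0.214) in MT+FAC against FAC.

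Spry2 (ENSMUSG00000022114, GRCm38 chromosome 14, 105891947 to 105896819), the other Sprouty member, held 0 to 6 counts per library and was not tested. It had 0 counts in 6 of 12 libraries, control 1, FAC 1, Lip-1+FAC 1 and 3 and MT+FAC 2 and 3. A count of 0 allows up to 3 counts, which was between 0.0958 and 0.130 CPM in these 6 libraries and covers counting error only. No difference of Spry2 between groups was detectable at this depth.

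**Figure D2:**
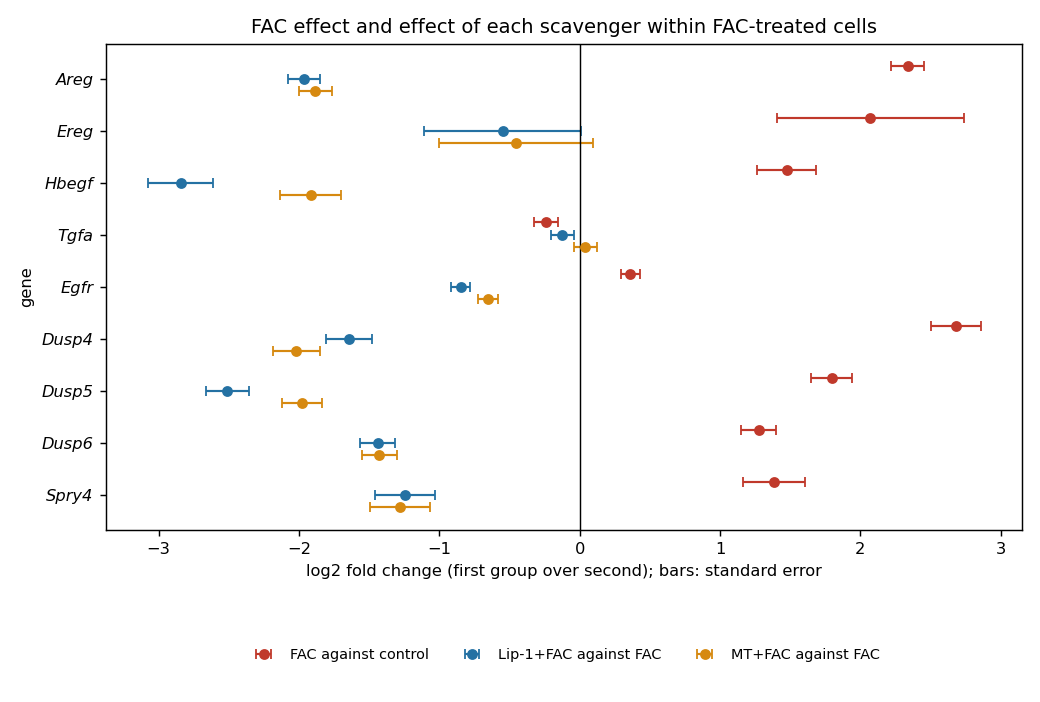
Log2 fold change (x axis) of the 9 tested members (y axis) in FAC against control and in each scavenger group against FAC, with bars for the standard error. Areg, Hbegf, Egfr, Dusp4, Dusp5, Dusp6 and Spry4 lie right of 0 in FAC against control and left of 0 in both scavenger comparisons, whereas Tgfa lies within 0.24 of 0 in all 3.

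Counted over the members, edgeR called 8 of the 9 tested higher (adjusted p under 0.05 over all genes) and 1 lower, Tgfa, in FAC against control, beside 17.5% and 19.1% of all genes tested. All 3 libraries of one group lay apart from all 3 of the other for 8 of the 9, beside 46.2% of all genes. The median log2 fold change was 1.48 for the members and -0.01 for all genes. Lip-1+FAC against FAC had 7 members lower and 0 higher, beside 19.2% and 20.7% of all genes, and 7 without overlap, beside 50.8%. MT+FAC against FAC also had 7 lower and 0 higher, beside 19.7% and 21.2%, and 7 without overlap, beside 52.9%. The members not called were Ereg and Tgfa in both. The member medians were -1.44 and -1.43, beside 0.00 for all genes in both. The members were chosen with these values known, so that nothing is read from these counts. All 3 comparisons share the FAC libraries, so that their values stand side by side and are not independent of one another. Without FAC replicate 2, the deeper library, the numbers of members called were 8, 7 and 7.

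The 2 scavengers were compared with each other in MT+FAC against Lip-1+FAC. By edgeR, 0 members were called, beside 1.34% of all genes, with 4 at an unadjusted p under 0.05, and DESeq2 called 2. Hbegf was 0.93 higher with Mito-TEMPO on the log2 scale (95% interval 0.40 to 1.46) and Dusp5 0.53 higher (0.20 to 0.87), and these were the 2 members without overlap between the groups, beside 19.8% of all genes. DESeq2 and edgeR without a filter called both, and edgeR without MT+FAC replicate 1 called Hbegf, at 1.13. Egfr differed by 0.19 (0.05 to 0.34) and was called in the unfiltered fit, at 0.20, while Dusp4 differed by -0.37 (-0.74 to -0.01). Areg differed by 0.08 (-0.17 to 0.33), Dusp6 by 0.01 (-0.26 to 0.28), Spry4 by -0.04 (-0.51 to 0.44) and Tgfa by 0.16 (-0.01 to 0.34). The interval of Ereg, from -1.14 to 1.33, was too wide to place it.

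Against control cells, the members of the scavenger groups lay on both sides of 0. In Lip-1+FAC, 2 members were called higher, beside 15.4% of all genes, and 4 lower, beside 14.8%. The higher ones were Areg, at 0.37 (SE 0.124), and Dusp4, at 1.04 (SE 0.182), and the lower ones were Hbegf, at -1.37 (SE 0.248), Dusp5, at -0.72 (SE 0.159), Egfr and Tgfa, the last at -0.36 (SE 0.0841). Dusp6, at -0.16 (SE 0.124), Spry4, at 0.14 (SE 0.230), and Ereg, at 1.52 (SE 0.708), were not called. The call of Areg was lost with only the compared libraries (0.38), without control replicate 2 (0.28) and without Lip-1+FAC replicate 1 (0.29) or 2 (0.39). Ereg was called higher with libraries thinned to the smallest total (2.02).

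In MT+FAC against control, Areg, at 0.45 (SE 0.123), and Dusp4, at 0.66 (SE 0.184), were called higher, beside 9.71% of all genes, and Egfr lower, beside 10.1%. The other 6 tested members missed the threshold, at -0.44 (SE 0.227) for Hbegf, -0.20 (SE 0.0838) for Tgfa, -0.18 (SE 0.153) for Dusp5, -0.15 (SE 0.124) for Dusp6, 0.10 (SE 0.230) for Spry4 and 1.62 (SE 0.698) for Ereg. The count fell from 3 to 1 without control replicate 2, where Areg stood at 0.36 and Dusp4 at 0.58. Areg was also not called without MT+FAC replicate 1 (0.40), nor Dusp4 without control replicate 1 (0.61) or MT+FAC replicate 2 (0.52) or 3 (0.64). Tgfa was called lower without control replicate 3 or MT+FAC replicate 2 (-0.28 in each), and Ereg higher with libraries thinned to the smallest total (2.16).

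**Figure D3:**
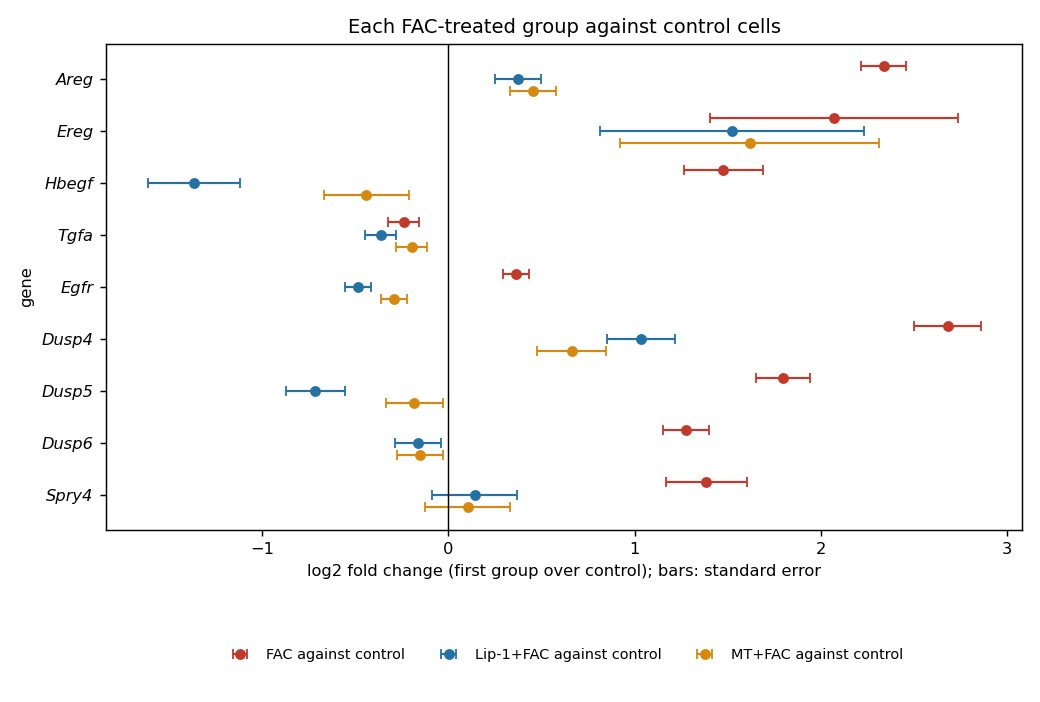
Log2 fold change against control (x axis) of the 9 tested members (y axis) in each FAC-treated group, with bars for the standard error. With FAC alone 8 members lie right of 0 and Tgfa left of it, and with a scavenger before FAC the called members include Areg and Dusp4 to the right and Egfr to the left, at -0.49 and -0.29.

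The other genes of the pathway were taken from 8 lists that hold 61 genes, of which 52 were tested. They were written by hand with earlier results of these libraries known, so their counts are a description, and each p-value printed for a gene is edgeR's, adjusted over all genes tested. In FAC against control 25 were called higher and 3 lower, beside 17.5% and 19.1% of all genes, with a median log2 fold change of 0.23 beside -0.01 for all genes. In Lip-1+FAC against FAC 5 were called higher and 22 lower, beside 20.7% and 19.2%, with a median of -0.18. In MT+FAC against FAC 5 were also called higher and 22 lower, beside 21.2% and 19.7%, with a median of -0.19. Without FAC replicate 2 the numbers called in either direction were 20, 22 and 24. The lists differed in size of response, from near 0 for the relay kinases to above 1 for genes that respond to ERK.

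Of the other ligand genes, 4 of 7 were tested (Epgn, Nrg2 and Nrg3 held at most 6 counts in a library). Among the 4 tested, 2 were called higher and 0 lower in FAC against control, beside 17.5% and 19.1% of all genes. Btc (betacellulin, another EGFR ligand) averaged 6.75 ± 0.351 CPM in control and 19.9 ± 1.58 CPM in FAC cells, against 10.4 ± 0.863 with liproxstatin-1 and 9.73 ± 0.478 with Mito-TEMPO (SD, n = 3). It rose by 1.55 (SE 0.113, edgeR adjusted p = 1.59e-08) with FAC and changed by -0.93 (adjusted p = 2.85e-06) and -1.03 (adjusted p = 1.19e-06) with the scavengers. All 3 FAC libraries of Btc were above all others, and no alternative changed these calls. The neuregulin gene Nrg1, a ligand of ERBB3 and ERBB4, went a different way, at 0.41 in FAC against control (edgeR adjusted p = 0.0138) and 0.40 (adjusted p = 0.0125) and 0.30 (adjusted p = 0.0499) in the scavenger groups against FAC. The first call was lost without control replicate 1 (0.37), FAC replicate 1 (0.37) or FAC replicate 2 (0.31). The second was lost when FAC replicate 3 (0.27) or replicate 2 of Lip-1+FAC (0.36) was left out. The last was lost in 10 of 15 alternatives, among them RLE scaling (0.30) and DESeq2 (0.30). Others of these were the fits without FAC replicate 1 (0.34), FAC replicate 3 (0.17), MT+FAC replicate 2 (0.25) or MT+FAC replicate 3 (0.24).

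Of the other receptor genes, Erbb3, a kinase-impaired partner of the ERBB family, fell by 0.52 on the log2 scale with FAC (SE 0.0722, edgeR adjusted p = 2.48e-05), opposite in sign to Egfr. It was not called in Lip-1+FAC against FAC, at 0.12, or in MT+FAC against FAC, at 0.18 (adjusted p = 0.0581), where upper-quartile scaling (0.19), the replicate block (0.18) or leaving out FAC replicate 1 (0.23) gave a call. Erbb2 was not called and held about 1 CPM, with 1.04 CPM in control and 1.32 CPM in FAC. Erbb4 had 0 counts in every library. Among the genes of ligand shedding, 3 of 5 were called higher with FAC and 0 lower, beside 17.5% and 19.1% of all genes. Of these, Rhbdf2, an inactive rhomboid that brings the sheddase ADAM17 to the cell surface, rose by 0.67 (SE 0.0763, edgeR adjusted p = 2.5e-06). Rhbdf2 then changed by -0.31 (adjusted p = 0.00316) and -0.33 (adjusted p = 0.00184) with liproxstatin-1 and Mito-TEMPO. The other 2 calls in FAC against control, Rhbdf1 at 0.23 and Adam9 at 0.16, were lost without FAC replicate 1 (0.25 and 0.16) or FAC replicate 2 (0.13 and 0.16), Rhbdf1 also without control replicate 1 (0.19) or with only the compared libraries (0.25), and Adam9 also without control replicate 3 (0.12) or FAC replicate 3 (0.16). Adam9 also lost its call with upper-quartile scaling (0.14) and with no filter on low counts (0.17).

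Inhibitors that act at the receptor were called higher with FAC for 5 of 8 genes and lower for 0, beside 17.5% and 19.1% of all genes. Their median log2 fold change was 0.48. Socs5, a suppressor of cytokine and EGFR signalling, rose by 0.85 (SE 0.160, edgeR adjusted p = 0.000436), and Cbl, a ubiquitin ligase that marks activated EGFR for degradation, by 0.81 (SE 0.132, adjusted p = 0.000116). Lrig1, which also lowers EGFR at the membrane, rose by 0.57 (SE 0.0862, adjusted p = 5.67e-05). Socs5 changed by -0.71 (adjusted p = 0.00171) and -0.63 (adjusted p = 0.00382) with the scavengers and Cblb, a relative of Cbl, by -0.49 (adjusted p = 0.000105) and -0.55 (adjusted p = 4.33e-05), whereas Lrig1 was not called in either, at -0.17 and -0.08, although without FAC replicate 3 it was called in the first, at -0.25.

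Errfi1 (the feedback inhibitor MIG6, which binds the EGFR kinase domain) was 1 of the 3 genes of that list not called with FAC. It averaged 2063 ± 46.4 CPM in control and 1998 ± 42.5 CPM in FAC cells, against 1184 ± 113 with liproxstatin-1 and 1602 ± 52.3 with Mito-TEMPO (SD, n = 3). It was not called with FAC, at -0.05 (SE 0.0616, edgeR adjusted p = 0.601), whereas Errfi1 was called lower in both scavenger groups against FAC, at -0.76 (adjusted p = 6e-08) and -0.32 (adjusted p = 0.000508). It was also higher in MT+FAC than in Lip-1+FAC by 0.44 (SE 0.0618, adjusted p = 0.000954). The libraries of these groups did not overlap, as in 19.8% of all genes.

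The kinases and adaptors of the RAS to ERK relay moved least, with a median of 0.04 in FAC against control. Of 16 tested genes, 3 were called higher and 2 lower, beside 17.5% and 19.1% of all genes. Sos2, an exchange factor that loads RAS with GTP, rose by 0.63 (SE 0.080, edgeR adjusted p = 9.25e-06), and Araf, a RAF kinase, fell by 0.37 (SE 0.0549, adjusted p = 4.21e-05). Araf rose by 0.24 (adjusted p = 0.00202) and 0.37 (adjusted p = 4.23e-05) with liproxstatin-1 and Mito-TEMPO over FAC.

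The remaining phosphatases and Sprouty-related inhibitors had 3 of 5 and 3 of 4 tested genes called higher with FAC and 0 lower. Of all genes, 17.5% were called higher and 19.1% lower. Dusp1, a phosphatase of several MAP kinases, averaged 495 ± 23.7 CPM in control and 782 ± 54.6 CPM in FAC cells, against 340.3 ± 5.25 with liproxstatin-1 and 394 ± 16.7 with Mito-TEMPO (SD, n = 3). It rose by 0.66 with FAC (SE 0.0587, edgeR adjusted p = 1.61e-07) and changed by -1.20 (adjusted p = 2.83e-10) and -0.99 (adjusted p = 3.12e-09) with the scavengers, to below control in both (adjusted p = 2.51e-06 and 0.000787). Dusp10, which prefers the stress kinases p38 and JNK, rose by 0.54 and then changed by -0.41 and -0.38 (adjusted p at most 0.000397). Spred1 and Spred2, membrane-bound inhibitors of RAS activation, rose by 0.72 (SE 0.129, adjusted p = 0.000278) and 0.95 (SE 0.158, adjusted p = 0.000135). In MT+FAC against FAC they changed by -0.48 (adjusted p = 0.00631) and -0.65 (adjusted p = 0.00274). In Lip-1+FAC against FAC Spred1 was not called, at -0.27 (adjusted p = 0.0977), but was in the unfiltered fit (-0.27) and with only the compared libraries (-0.28). Spred2 was called there, at -0.46 (adjusted p = 0.0233), a call lost when FAC replicate 1 (-0.42) or 3 (-0.42) or replicate 1 (-0.47) or 2 (-0.40) of Lip-1+FAC was left out. The third calls in each list, Dusp8 at 0.21 and Spred3 at 1.25, were lost without any of control replicates 1 to 3 (0.20 to 0.22 and 1.04 to 1.42) and without FAC replicate 1 (0.22 and 1.31) or 2 (0.15 and 1.07). Spred3 also lost its call with the replicate block (1.25, adjusted p = 0.0501), with DESeq2 (1.27), without a filter (1.26) and with thinned libraries (1.17). In Lip-1+FAC and MT+FAC against FAC, Spred3 changed by -2.40 (SE 0.505, edgeR adjusted p = 0.00102) and -2.65 (SE 0.511, adjusted p = 0.000502), and none of the 14 alternatives run for each lost the call. Spred3 held 2 to 52 counts per library.

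Genes that ERK activity is known to induce moved furthest, with a median of 1.03 in FAC against control. Of 8 tested, 6 were called higher and 0 lower, beside 17.5% and 19.1% of all genes. In each scavenger group 6 of 8 were called lower and 0 higher than in FAC, with medians of -1.11 (Lip-1+FAC) and -1.28 (MT+FAC). Of all genes, 19.2% were called lower and 20.7% higher with liproxstatin-1, and 19.7% and 21.2% with Mito-TEMPO. Egr1, an immediate early transcription factor, averaged 19.7 ± 0.843 CPM in control and 93.2 ± 7.80 CPM in FAC cells, against 49.0 ± 5.53 with liproxstatin-1 and 30.6 ± 5.90 with Mito-TEMPO (SD, n = 3). It rose by 2.24 with FAC (SE 0.126, edgeR adjusted p = 6.68e-09) and changed by -0.93 (adjusted p = 1.7e-05) and -1.61 (adjusted p = 1.5e-07) with the scavengers. Egr1 was lower in MT+FAC than in Lip-1+FAC, with a difference of -0.68 on the log2 scale (SE 0.121, adjusted p = 0.0106), a call lost without Lip-1+FAC replicate 2 at -0.61 (adjusted p = 0.0603).

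Fosl1 (the AP-1 subunit FRA1) rose from 0.821 ± 0.473 to 7.24 ± 1.19 CPM (SD, n = 3), by 3.15 on the log2 scale (SE 0.320, edgeR adjusted p = 8.73e-07). It averaged 1.88 ± 0.144 CPM with liproxstatin-1 and 1.24 ± 0.384 CPM with Mito-TEMPO before FAC. Of its exonic bases, 57.2% overlap another gene, and with the strand columns summed its rise was 2.76. Phlda1, a pleckstrin homology-like protein induced by growth factors, rose from 4.75 ± 0.374 to 14.2 ± 0.972 CPM, by 1.58 on the log2 scale (SE 0.158, edgeR adjusted p = 5.79e-07), and was not called in either scavenger group against control, at 0.06 and 0.14. Of its exonic bases, 33.0% overlap another gene, and with the strand columns summed its rise was 1.88 and it was called in MT+FAC against control, at 0.38 (adjusted p = 0.00965). Etv4, an ETS factor, was not called with FAC, at 0.57 (adjusted p = 0.345), and was called lower with each scavenger than in FAC, at -1.40 (adjusted p = 0.026) and -1.66 (adjusted p = 0.011). The first of these calls was lost when FAC replicate 1 (-1.37) or 3 (-1.33) or replicate 2 (-1.14) or 3 (-1.17) of Lip-1+FAC was left out, and the second without MT+FAC replicate 1 (-1.54) or 2 (-1.31). Etv4 held 5 to 50 counts per library.

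**Figure D4:**
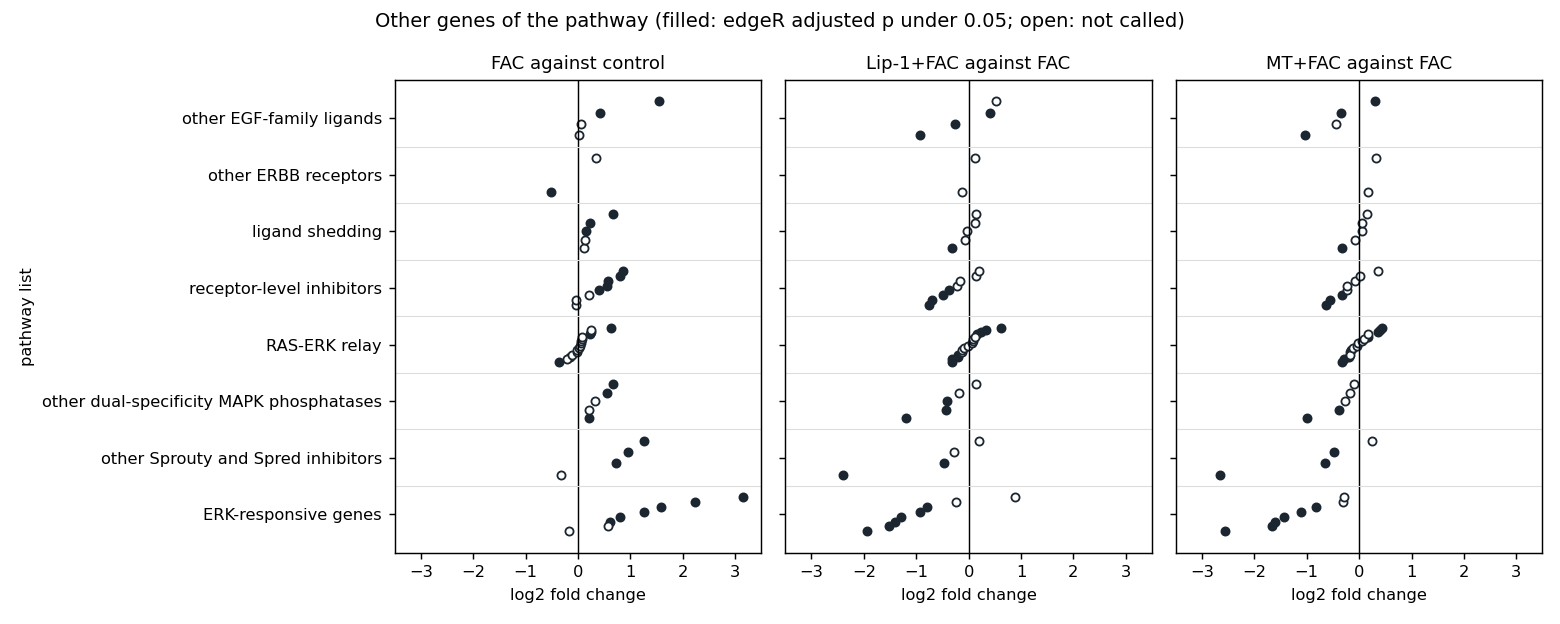
Log2 fold change (x axis) of the 52 tested genes of 8 pathway lists (y axis), 1 point per gene, in FAC against control and in each scavenger group against FAC, filled where edgeR's adjusted p was under 0.05. Called ERK-responsive genes lie to the right of 0 with FAC, up to 3.15, and to the left in both scavenger comparisons, while the genes of the RAS to ERK relay lie within 0.63 of 0.

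The genes whose pattern was most like that of each member were ranked by Pearson correlation of log2 CPM over the 12 libraries, which share 4 group means, among 8994 protein-coding genes with a mean of at least 5 CPM. These coefficients describe the libraries and carry no p. Areg was nearest to Ppp1r15a (r = 0.985) and Trip10 (0.985), Hbegf to Ccn2 (0.981) and Fos (0.976), and Egfr to Egln3 (0.990) and Pls3 (0.986). Dusp4 was nearest to Phc2 (0.981) and Pxdc1 (0.978), Dusp5 to Cldn4 (0.984) and Akap12 (0.983), Dusp6 to Csrnp1 (0.991) and Igfbp1 (0.978), and Spry4 to Asb6 (0.977) and Otud1 (0.971). Fos, for example, averaged 16.5 CPM in control and 44.5 CPM in FAC cells, against 8.05 with liproxstatin-1 and 12.5 with Mito-TEMPO, so that, as for Hbegf, both scavenger means were below control. Tgfa, nearest to Epha1 (0.916) and Myo1e (0.911), and Ereg, nearest to Flywch1 (0.877) and Osmr (0.847), had lower coefficients than the other members. Ereg held 2 to 37 counts per library, and whether this lowered its coefficients was not tested.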

How the data were processed

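RNA was sequenced from 12 libraries of cultured primary mouse hepatocytes, 3 in each of 4 groups named in the labels. The authors deposited raw gene-level read counts, not normalised, with unstranded and strand-specific columns, and the submitters' processing notes name STAR and the build GRCm38. Tool versions and the annotation release are not given in the sources used here. The unstranded column was used. Lines that name no gene held 18.8% to 24.2% of the listed reads and were left out of every total and fit. Of 55487 identifiers, 55227 were found in GENCODE M21 (GRCm38), which gave names, coordinates and exon lengths.

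Members and gene lists were chosen with earlier results of these data known. In R 4.3.3, edgeR 4.0.16 was used with filterByExpr, TMM scaling and a robust quasi-likelihood fit of 4 group means to all 12 libraries. Two-sided p-values were corrected over 13535 genes (Benjamini-Hochberg), with calls at an adjusted p under 0.05. Standard errors come from the log2 fold change and its F statistic, and 95% intervals from the matching t quantile. CPM are counts scaled to the TMM library size. The text names every member, the called genes with the 3 largest changes of each pathway list and comparison, genes called between the scavengers, and the 2 genes most like each member, apart from an item that is not reported here. The fit was tested on simulated data. Alternatives were DESeq2 1.42.0, RLE or upper-quartile scaling, other filters, fits of the compared libraries alone, summed strand columns, thinning to equal depth, a replicate block and leaving out each library in turn. Motifs were searched in RefSeq windows of 250 bases. Reads carry no molecular identifiers in the labels' account, so that intervals on counts cover counting error only.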

Additional observations from a re-analysis of the deposited data

Results flagged for a closer look

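The effects of the 2 scavengers on FAC-treated cells differed from each other for 2 of 52 tested pathway genes, beside 1.34% of all genes. The difference itself was tested by edgeR (MT+FAC against Lip-1+FAC). Errfi1 was higher with Mito-TEMPO by 0.44 on the log2 scale (SE 0.0618, edgeR adjusted p = 0.000954). Its call was the same in every alternative run, between 0.37 and 0.51. Egr1 was lower with Mito-TEMPO, at -0.68 (SE 0.121, edgeR adjusted p = 0.0106), with alternatives between -0.80 and -0.52, of which the fit without Lip-1+FAC replicate 2 was the one that lost the call. In both genes the 3 libraries of one group lay apart from the 3 of the other, as in 19.8% of all genes.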

How the results depend on the processing

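No log2 fold change that was called for a member or a named pathway gene reversed its sign under any alternative. Of 787 values for single members under an alternative, 756 kept their side of the threshold, 21 lost a call and 10 gained one, and for the named pathway genes these numbers were 2447, 120 and 18 of 2585. Ereg moved by less than its standard error, from 1.52 to 2.02 in Lip-1+FAC against control and from 1.62 to 2.16 in MT+FAC against control when libraries were thinned to equal depth, and was then called. In MT+FAC against Lip-1+FAC the number of members called, 0 in the report, was 3 without a filter on low counts and 2 with DESeq2, and 0 to 1 when a library was left out. The pathway genes called there, 2 in the report, were 1 to 2 when a library was left out. In MT+FAC against control the members called, 3 in the report, ranged from 1 to 4 when a library was left out. The ranges for members were 7 to 9 in FAC against control, 7 to 7 in each scavenger group against FAC and 5 to 6 in Lip-1+FAC against control. With only genes of a mean CPM of at least 5, the members called were 6, 5 and 5 in the first 3 comparisons, because fewer members were tested. In the same order, the pathway genes called ranged from 20 to 28, 20 to 23 and 22 to 26 without a library.

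With the replicate number as a replicate block, the members called were 9, 7, 7, 0, 6 and 3 over the 6 comparisons, as without it, and all genes called in FAC against control were 4863 in place of 4960. No pairing by number was detected: deviations of same-numbered libraries correlated between -0.25 and 0.16 (median 0.01, against -0.02 for different numbers). The best match in another group had the same number in 14 of 36 cases. These values cannot show whether same-numbered libraries share an animal or culture, which the labels do not say. In MT+FAC against Lip-1+FAC DESeq2 called 465 genes and edgeR 182. Depth limits Ereg and Spry2, with at most 37 and 6 counts in a library, and Spred3 and Etv4, with at most 52 and 50. Overlap with other genes limits Dusp5, Fosl1 and Phlda1, for which unstranded reads cannot be assigned.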

Other observations

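The pathway genes were also compared with control cells in the scavenger groups. In Lip-1+FAC against control edgeR called 16 of 52 higher and 7 lower, beside 15.4% and 14.8% of all genes, with a median log2 fold change of 0.15, and in MT+FAC against control 12 higher and 5 lower, beside 9.71% and 10.1%, with a median of 0.15. Egr1 stayed above control in both, by 1.31 (SE 0.126, edgeR adjusted p = 2.09e-06) with liproxstatin-1 and by 0.63 (SE 0.126, adjusted p = 0.0028) with Mito-TEMPO, and Btc by 0.63 (SE 0.116, adjusted p = 0.000471) and 0.53 (SE 0.116, adjusted p = 0.00394). Errfi1 lay below control in both, at -0.80 (SE 0.0620, adjusted p = 4.45e-08) and -0.37 (SE 0.0617, adjusted p = 0.000524).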
